A study of Mus musculus with 7 samples.

Results

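The TNF superfamily ligands and receptors were followed in wound macrophages taken from mice on day 7 (d7) and day 3 (d3) after polyvinyl alcohol (PVA) sponges were placed under the skin of the back. Genes were included where a probe set carried a single gene symbol that starts with Tnfsf or Tnfrsf, or that is Tnf, Lta, Ltb, Ltbr, Cd40, Cd40lg, Fas, Fasl, Cd27, Cd70, Ngfr, Edar or Eda2r, and the probe set with the highest mean over the 7 arrays stood for each gene. This gave 42 of the 30176 genes with a probe set of their own: 15 ligand genes, 26 receptor genes and Tnfsf13os, a noncoding RNA antisense to Tnfsf13 that shares the prefix. Cd27 had no probe set of its own. The 4 d7 arrays (replicates 5 to 8) and the 3 d3 arrays (replicates 1, 3 and 4) each held RNA of C57BL/6 mouse cells that were first selected with magnetic beads for CD11b and then sorted by flow cytometry for F4/80, both surface proteins of macrophages. The labels name the arrays of a day as biological replicates and do not say how many mice gave the cells of 1 array. The study asked what changes in these cells between an early and a late phase of the wound.

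Ligands of this family are mostly trimeric membrane proteins, many of which can be cut from the cell surface. Most of their receptors either carry a death domain or bind TRAF adaptors. Receptors that bind TRAFs lead to NF-kB and MAP kinase signaling, and those with a death domain can start apoptosis or necroptosis as well. Macrophages are a main source of TNF in wounds, and they carry both TNF receptors, CD40 and RANK. Several ligands of the family, such as the CD40 ligand, the Fas ligand and CD70, are best known from lymphocytes.

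Levels are log2 values of a probe set as deposited, and the array background, 5.39, was set at the top reading among antigenomic probes, which match no mouse sequence, over the 7 arrays. A gene is called above background where its d7 mean or its d3 mean exceeds this. By this measure 19 of the 42 genes (45.2%) were above background, against 30.6% of all 65956 probe sets tested. The latter include 33142 with no gene symbol listed, and the share over genes picked by the same rule was not counted. They were the ligands Tnf, Tnfsf9, Tnfsf10, Tnfsf13b, Tnfsf14 and Tnfsf15, the receptors Cd40, Fas, Ltbr, Tnfrsf1a, Tnfrsf1b, Tnfrsf4, Tnfrsf11a, Tnfrsf13b, Tnfrsf14, Tnfrsf21, Tnfrsf23 and Tnfrsf26, and Tnfsf13os. Tnfrsf4 and Tnfrsf23 were above background in the d7 mean only, with d3 means of 5.38 and 5.35. The cutoff of 5.39 was the top antigenomic reading on d3 replicate 4, and on the other arrays that reading was 5.19 to 5.21. Levels are not compared between genes, since probe sets differ in how well they bind. In bulk RNA of sorted cells, fewer cells that express a gene and less of its RNA per cell cannot be told apart.

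**Figure D1:**
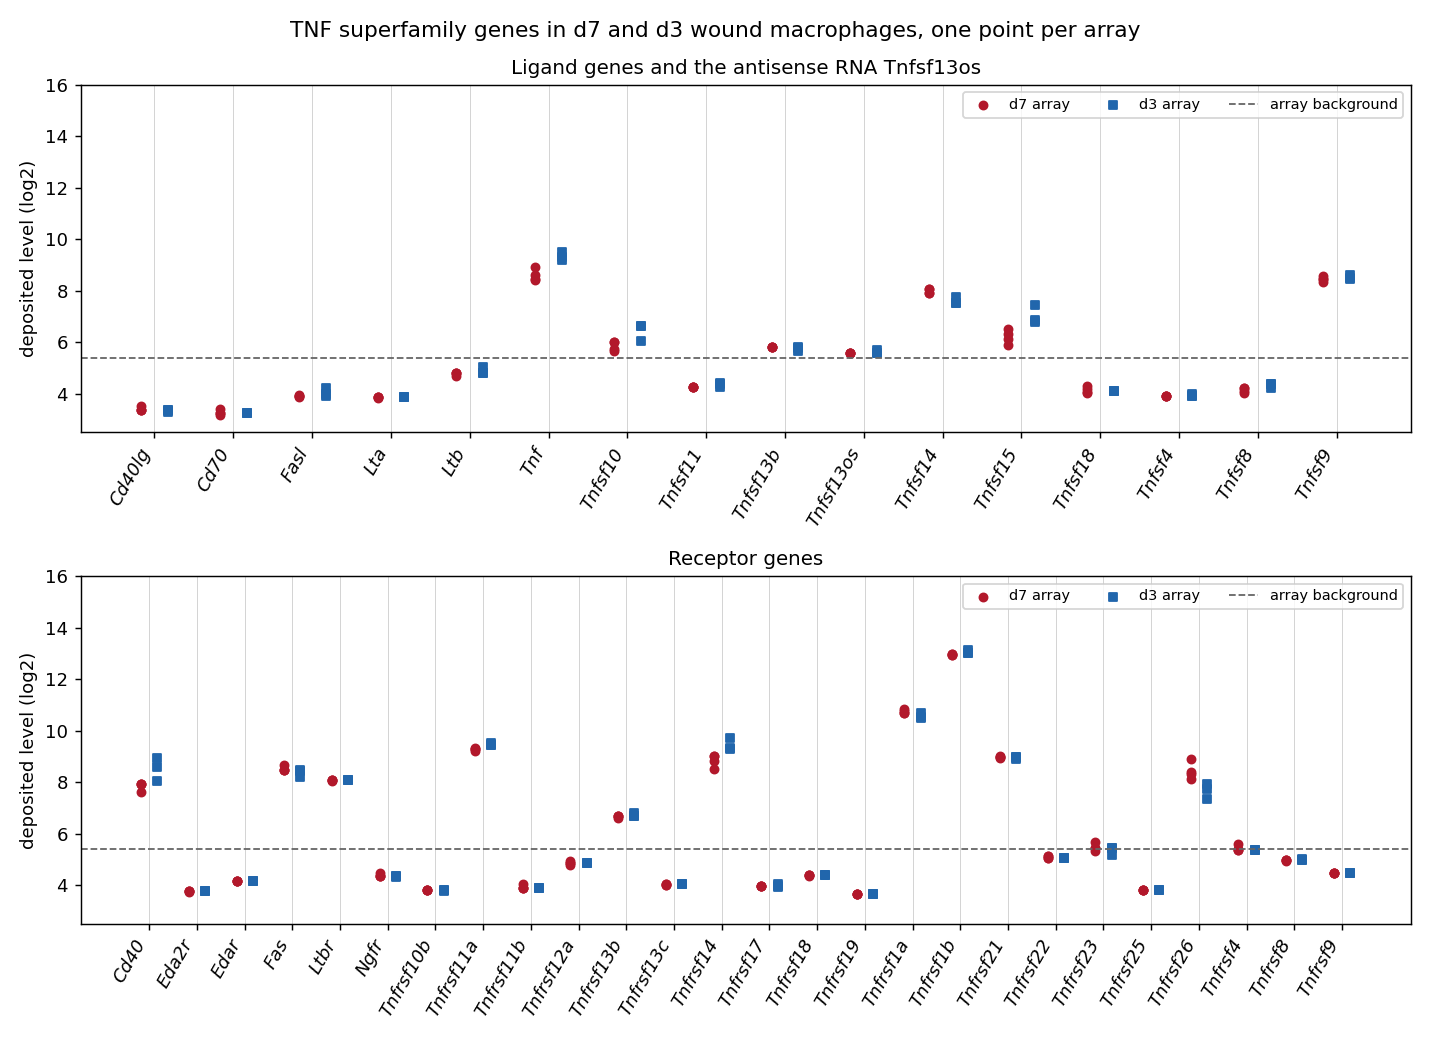
Deposited log2 level of each TNF superfamily gene (vertical axis, log2 units) on every array, with d7 arrays as red circles left of d3 arrays as blue squares; the dashed line is the array background of 5.39. Of the 42 genes, 19 lie above the line in the mean of at least one day and 23 lie at or under it.

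The 5′ flanks of 3 genes are shown as examples of a window with a motif match: Tnf as the ligand with the smallest p, Tnfsf14 as the ligand higher in every d7 array, and Tnfrsf1b as one of the TNF receptors. They are RefSeq sequence of the GRCm38.p6 build, printed 5′ to 3′ on the strand of the gene and ending at the base before the RefSeq start, with the matched motif in capitals: the TATA box (TATAAA) of Tnf, an interferon-stimulated response element (ISRE, GAAA and GAAA with any 2 bases between) of Tnfrsf1b on the reverse strand, and an AP-1 element (TGANTCA) of Tnfsf14.
Tnf (chr17:35202008-35202107, minus strand): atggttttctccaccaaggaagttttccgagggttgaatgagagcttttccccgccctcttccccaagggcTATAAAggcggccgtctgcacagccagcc
Tnfrsf1b (chr4:145246871-145246970, minus strand): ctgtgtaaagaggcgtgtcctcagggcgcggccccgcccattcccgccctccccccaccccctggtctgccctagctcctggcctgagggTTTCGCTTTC
Tnfsf14 (chr17:57194182-57194361, minus strand): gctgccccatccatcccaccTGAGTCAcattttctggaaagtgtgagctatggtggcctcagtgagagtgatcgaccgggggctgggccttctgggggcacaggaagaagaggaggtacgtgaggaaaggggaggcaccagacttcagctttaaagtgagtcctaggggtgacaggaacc

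The TATA box of Tnf lies 29 to 24 bases before the start, the ISRE of Tnfrsf1b 10 to 1 bases before it and the AP-1 element of Tnfsf14 160 to 154 bases before it. A window of 250 bases before the start was on hand for 15 of the 19 genes above background, as 16 windows, and was searched on both strands. Besides the 3 shown, Tnfrsf14 held an ISRE, Fas an AP-1 element, and the second window of Tnfsf13b both an ISRE and an AP-1 element. Tnfrsf23 held the letters TATAAA on the reverse strand only, 158 to 153 bases before the start. Matches to the NF-kB motif were in 0 of the 16 windows. Over all 32851 windows of that length, 3.90% held the NF-kB motif, 2.98% the ISRE, 6.75% the AP-1 element and 12.4% the letters TATAAA. A match gives only the letters of the window, and the 4 genes Cd40, Tnfrsf26, Tnfsf9 and Tnfsf13os were not searched.

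Between d7 and d3, none of the 42 genes passed limma at an adjusted p under 0.05, where 0.117% of all probe sets did. The smallest adjusted p in the family was 0.249, for Tnf. At an unadjusted p under 0.05 there were 11 genes, 3 of them higher on d7 (7.14% of the 42, against 3.32% of all probe sets) and 8 of them lower (19.0%, against 4.34%). With the methods' t-test, 0 genes passed after Benjamini-Hochberg adjustment (0.0197% of all probe sets did) and 11 without it (26.2%, against 5.54% of all probe sets). All 4 d7 arrays lay above all 3 d3 arrays for Tnfrsf26 and Tnfsf14 (4.76% of the genes, against 2.62% of all probe sets), and below all of them for Cd40, Tnf, Tnfrsf1b, Tnfrsf11a, Tnfrsf14, Tnfsf8, Tnfsf10 and Tnfsf15 (19.0%, against 3.38%). The shares over all probe sets include those at background. The counts of groups apart were made on the deposited scaling only. Centring on medians moved d3 replicate 3 by −0.056 and d7 replicate 5 by 0.019, more than the narrowest of these gaps. Tnfsf8, at background, had its highest d7 array at 4.210 and its lowest d3 array at 4.213. For Tnfrsf1b the unadjusted limma p was 0.022 as deposited, 0.087 after quantile normalization and 0.11 after centring. Over the 42 genes the d7 mean was higher in 15, lower in 25 and equal in 2, and the median log2 difference was −0.0080, beside −0.00092 over all probe sets. This split follows the scaling of the arrays: the d7 mean was higher in 23 and lower in 19 genes after quantile normalization (median 0.0028), and higher in 25 and lower in 17 after each array was centred on its median (median 0.013). Replicates within a day are separate samples by their labels, and the p-values measure only the spread between them.

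The values themselves limit these tests. Many probe sets hold exactly the same value on several arrays, for a reason that the sources used here do not give. Among the 19 genes above background, 7 had a different value on each array and another 7 had 1 value on 4 or more arrays. Among the 23 genes at background, 0 had a different value on each array and 19 had 1 value on 4 or more. Where only the 12129 probe sets with 7 different values were tested, a choice made after the data were seen, Tnf passed limma with an adjusted p of 0.0230, as 1 of the 7 family genes present, where 6.79% of the 12129 passed.

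Among the ligands, Tnf encodes the cytokine that gave the family its name. Its levels were 8.45, 8.92, 8.44 and 8.60 on the d7 arrays (replicates 5 to 8, the order used throughout), against 9.32, 9.52 and 9.22 on the d3 arrays (replicates 1, 3 and 4). The groups did not overlap, and the nearest pair was d7 replicate 6 and d3 replicate 4. The mean was 8.60 ± 0.22 on d7 (SD, n = 4) and 9.35 ± 0.16 on d3 (SD, n = 3). The log2 difference was −0.76 with a standard error of 0.14 and a 95% interval of −1.11 to −0.40, so the d7 level was 0.592 times that on d3 (limma, adjusted p = 0.249).

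Tnfsf15 encodes TL1A, a ligand that costimulates T cells through the receptor DR3. It measured 6.32, 5.90, 6.53 and 6.14 on d7, against 6.79, 7.44 and 6.86 on d3. Every d7 array was under every d3 array, and d3 replicate 3 stood highest. The means were 6.22 ± 0.27 on d7 and 7.03 ± 0.36 on d3, and the log2 difference was −0.81 (95% interval −1.35 to −0.26; limma, adjusted p = 0.527).

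Tnfsf10 encodes TRAIL, a ligand that can trigger death of target cells. Its levels were 5.66, 5.74, 6.02 and 6.02 on d7, against 6.64, 6.64 and 6.03 on d3. Replicates 7 and 8 of d7 were within 0.014 of replicate 4 of d3, so the groups were apart only narrowly. The log2 difference was −0.58 (95% interval −1.05 to −0.11; limma, adjusted p = 0.647), and the d7 mean lay 0.47 above the array background.

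Tnfsf14 encodes LIGHT, a ligand of HVEM and of the lymphotoxin beta receptor. It was the one ligand above background with all d7 arrays over all d3 arrays, at 7.91, 8.06, 8.08 and 7.93 on d7, against 7.76, 7.53 and 7.53 on d3. The means were 7.99 ± 0.09 on d7 and 7.61 ± 0.14 on d3. The log2 difference was 0.39 (95% interval 0.19 to 0.58; limma, adjusted p = 0.297), a level 1.31 times as high on d7 as on d3.

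Tnfsf9 and Tnfsf13b had intervals that include 0. Tnfsf9, the ligand of the T cell receptor 4-1BB, lay at 8.35 to 8.56 on d7 and at 8.48 to 8.62 on d3, with a log2 difference of −0.08 (95% interval −0.23 to 0.07). Tnfsf13b, which encodes the B cell survival factor BAFF, had the same value, 5.83, on all d7 arrays and 5.64 to 5.83 on d3, with a difference of 0.08 (95% interval −0.03 to 0.18). Tnfsf13os held 5.57 on every d7 array and 5.57 to 5.69 on d3. Tnfsf12 and Tnfsf13, the genes of TWEAK and APRIL, share 1 probe set with their read-through transcript, which read 9.24 on 6 arrays and 9.26 on d7 replicate 7, so neither gene has a level of its own.

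**Figure D2:**
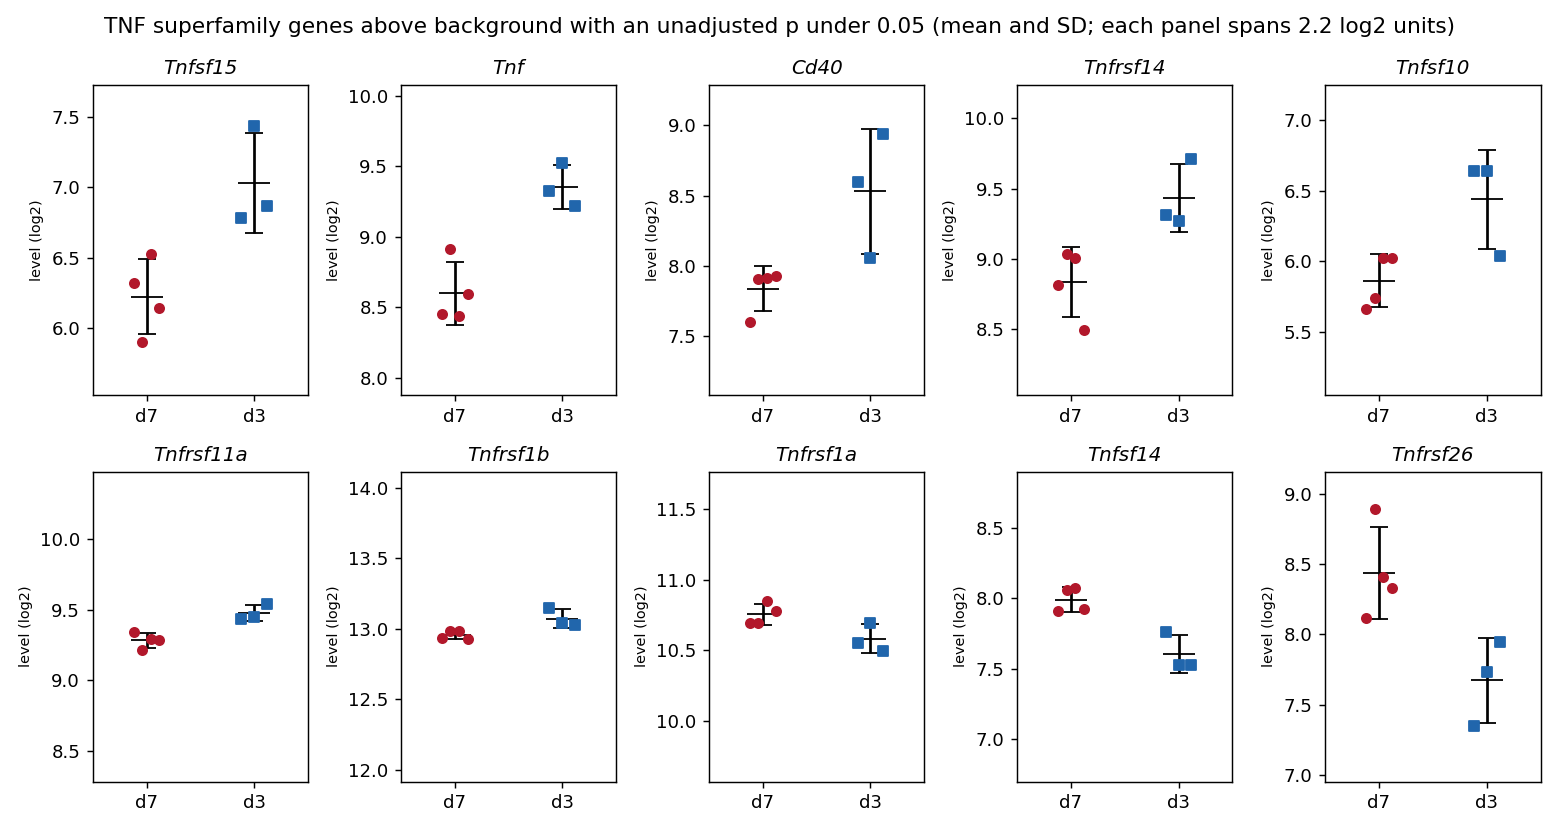
Log2 level on each array for the 10 genes above background with an unadjusted limma p under 0.05, with d7 arrays left of d3 arrays in every panel; bars are the mean and SD, and every panel spans the same number of log2 units around its own centre. The groups are apart in 9 panels and overlap in that of Tnfrsf1a.

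Among the receptors, both TNF receptors were above background on all 7 arrays, and their log2 differences had opposite signs, neither past the adjusted threshold. Tnfrsf1a encodes TNFR1, which has a death domain. It measured 10.69, 10.69, 10.85 and 10.78 on d7, against 10.55, 10.69 and 10.50 on d3. The groups overlapped, since d3 replicate 3 held the same value as d7 replicates 5 and 6. The log2 difference was 0.17 (95% interval 0.02 to 0.33; limma, adjusted p = 0.647).

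Tnfrsf1b encodes TNFR2, which lacks a death domain and binds TRAF2. It measured 12.93, 12.98, 12.98 and 12.93 on d7, against 13.15, 13.04 and 13.03 on d3. All d7 arrays were under all d3 arrays, by a small amount: the log2 difference was −0.11 (95% interval −0.20 to −0.02; limma, adjusted p = 0.643). Its 5′ flank, with the ISRE that ends at the last base before the start, is printed above.

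Tnfrsf26 is a mouse gene next to Tnfrsf22 and Tnfrsf23, which encode decoy receptors for TRAIL in mice. Its levels were 8.12, 8.89, 8.40 and 8.33 on d7, against 7.35, 7.73 and 7.94 on d3. Every d7 array was above every d3 array, and d7 replicate 6 stood highest. The means were 8.44 ± 0.33 on d7 and 7.67 ± 0.30 on d3, and the log2 difference was 0.76 (95% interval 0.20 to 1.32; limma, adjusted p = 0.609). Of its neighbours, Tnfrsf23 read 5.34 to 5.67 on d7 and 5.15 to 5.44 on d3, a difference of 0.13 (95% interval −0.14 to 0.39), and Tnfrsf22 was at background on both days.

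Cd40 encodes the receptor through which T cells activate macrophages and B cells. It measured 7.60, 7.91, 7.92 and 7.93 on d7, against 8.60, 8.06 and 8.94 on d3. The d3 arrays were spread wider than the d7 arrays, and d3 replicate 3 came within 0.13 of the highest d7 array. The means were 7.84 ± 0.16 on d7 and 8.53 ± 0.44 on d3, with a log2 difference of −0.69 (95% interval −1.24 to −0.14; limma, adjusted p = 0.643). When 1 array was left out, the difference lay between −0.93 (without d3 replicate 3) and −0.49 (without d3 replicate 4).

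Tnfrsf14 encodes HVEM, the receptor that LIGHT shares with the inhibitory partner BTLA. Its levels were 8.81, 9.04, 9.005 and 8.50 on d7, against 9.31, 9.27 and 9.71 on d3. The groups did not overlap, with d7 replicate 8 lowest and d3 replicate 4 highest. The log2 difference was −0.59 (95% interval −1.03 to −0.16; limma, adjusted p = 0.606), while that of its ligand Tnfsf14 was positive.

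Tnfrsf11a encodes RANK, the receptor that drives osteoclast formation from cells of the macrophage lineage. It measured 9.34, 9.21, 9.30 and 9.29 on d7, against 9.44, 9.45 and 9.54 on d3. The groups were apart and the spread within each was narrow. The log2 difference was −0.19 with a standard error of 0.04 (95% interval −0.29 to −0.09; limma, adjusted p = 0.303).

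The other receptors above background had intervals that include 0. Tnfrsf21 encodes the death domain receptor DR6 and read 9.001, 8.97, 8.95 and 8.97 on d7, against 8.97, 8.92 and 8.97 on d3. Its difference of 0.02 had a 95% interval of −0.02 to 0.07. Ltbr, the lymphotoxin beta receptor, read 8.10 on 6 arrays and 8.06 on d7 replicate 5, with an interval of −0.04 to 0.02. Its small negative difference, −0.0090, turned positive once arrays were quantile normalized or centred on their medians. Fas, the receptor of the Fas ligand, read 8.48 to 8.67 on d7 and 8.21 to 8.49 on d3, with a difference of 0.14 (95% interval −0.07 to 0.36). Tnfrsf13b, which encodes the BAFF receptor TACI, had a difference of −0.06 (95% interval −0.15 to 0.03), at 6.61 to 6.67 on d7 and 6.67 to 6.80 on d3. Tnfrsf4, the gene of OX40, read 5.38 to 5.59 on d7 and 5.37 to 5.38 on d3, at the edge of the background.

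**Figure D3:**
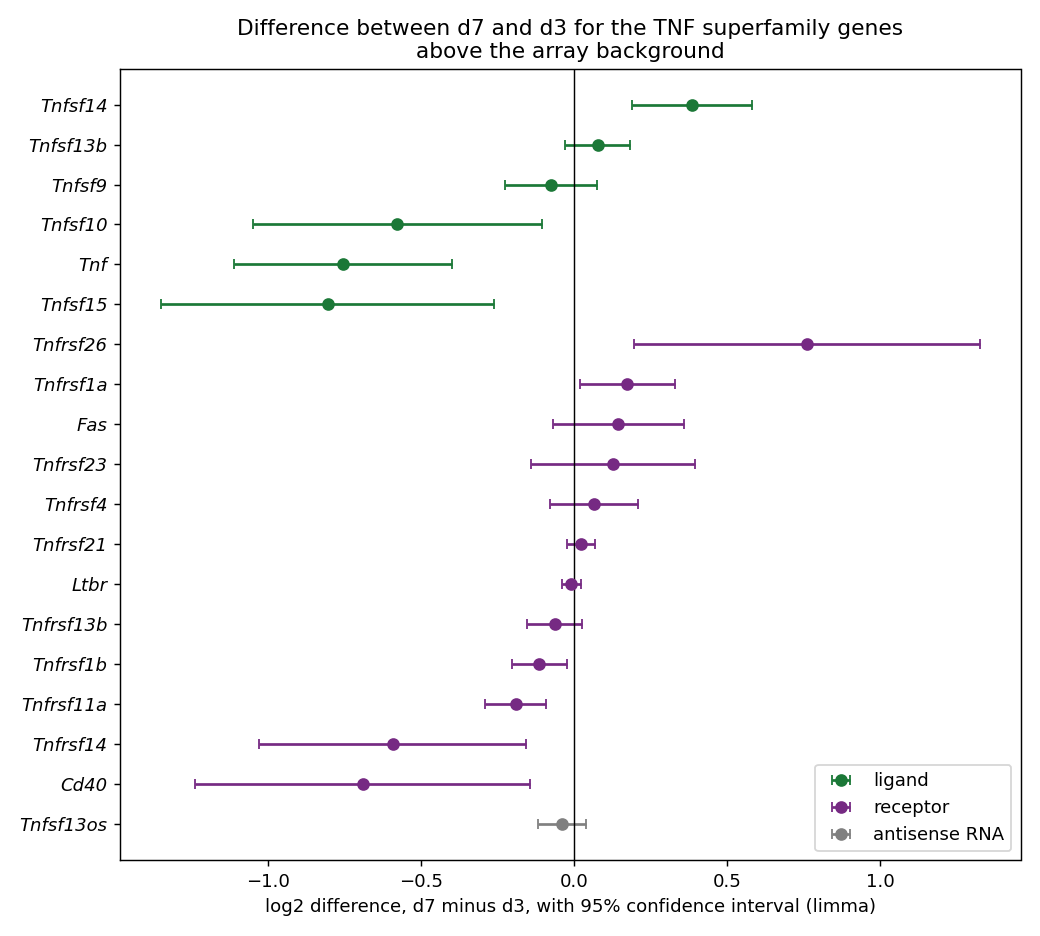
Log2 difference, d7 minus d3, of the 19 genes above background, with 95% confidence intervals from limma; points right of 0 are higher on d7. Intervals exclude 0 for 10 genes, from −0.81 (Tnfsf15) to 0.76 (Tnfrsf26), and none of the 19 passed the adjusted threshold.

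The 23 genes at background were the ligands Cd40lg, Cd70, Fasl, Lta, Ltb, Tnfsf4, Tnfsf8, Tnfsf11 and Tnfsf18 and the receptors Eda2r, Edar, Ngfr, Tnfrsf8, Tnfrsf9, Tnfrsf10b, Tnfrsf11b, Tnfrsf12a, Tnfrsf13c, Tnfrsf17, Tnfrsf18, Tnfrsf19, Tnfrsf22 and Tnfrsf25. Their values lay between 3.19 and 5.15, and their log2 differences between −0.20 and 0.07. Values at background limit a level from above and do not show that the RNA was absent. Tnfsf8, which encodes the CD30 ligand, was the only one of them with an unadjusted p under 0.05, at 4.21, 4.10, 4.01 and 4.21 on d7 and 4.40, 4.39 and 4.21 on d3. Edar and Tnfrsf9 held 1 value on all 7 arrays. Cd27, with a probe set shared with a microRNA gene, read 3.90 on every array.

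Set side by side, ligands and receptors of a pair were often not both above background. For the TNF pair, the ligand Tnf and the receptors Tnfrsf1a and Tnfrsf1b were all above it. For the LIGHT pair, Tnfsf14, Tnfrsf14 and Ltbr were above it, while Lta and Ltb, whose products also bind these receptors, were not. Tnfrsf11a was above background while its ligand Tnfsf11 (RANKL) and the soluble decoy Tnfrsf11b (osteoprotegerin) were at it. Likewise Cd40 and Fas were above background while Cd40lg and Fasl were at it. The reverse held for Tnfsf15 with Tnfrsf25 (DR3), for Tnfsf9 with Tnfrsf9 (4-1BB), and for Tnfsf10 with Tnfrsf10b, the mouse TRAIL death receptor. Tnfsf13b and its receptor Tnfrsf13b were above background, and the B cell receptors Tnfrsf13c and Tnfrsf17 were at it.

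Several of these genes are neighbours in RefSeq with no other protein-coding gene between them. Tnf lies between Ltb and Lta on chromosome 17, and the log2 differences of the 3 genes in that order were −0.12 for Ltb, −0.76 for Tnf and −0.01 for Lta, with Ltb and Lta at background. On the same chromosome Tnfsf9, Cd70 and Tnfsf14 follow each other, with differences of −0.08, 0.01 and 0.39, and Cd70 was at background. Tnfsf15 and Tnfsf8 lie side by side on chromosome 4, at −0.81 and −0.20, with Tnfsf8 at background. Ltbr and Tnfrsf1a on chromosome 6 have 1 protein-coding gene between them and differed by −0.01 and 0.17.

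A further 73 genes were listed by known roles downstream of these receptors or on TNF itself, or by names that refer to TNF or TRAF. The list includes the family members Eda and Relt, which the symbols above leave out. Of the 73 genes, 68 were analysed here and 56 were above background. None passed limma (smallest adjusted p = 0.264), and with the methods' t-test none passed after adjustment and 10 without it. By limma 13 had an unadjusted p under 0.05, 4 higher (5.88% of the 68) and 9 lower (13.2%), beside the 3.32% and 4.34% of all probe sets. Over the 68 genes the median log2 difference was −0.011.

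The 6 with the smallest p were Zfp36l1, Rel, Nfkbia, Tnfaip2, Birc3 and Relb. Rel, an NF-kB subunit, lay at 11.28 to 11.58 on d7 and at 11.97 to 12.58 on d3, a difference of −0.81 (limma, adjusted p = 0.303). Nfkbia, which encodes the inhibitor IkB-alpha and is itself an NF-kB target, lay at 12.62 to 12.89 on d7 and at 13.19 to 13.64 on d3, a difference of −0.63 (limma, adjusted p = 0.321). Relb, the subunit of the noncanonical arm, differed by −0.15 (limma, adjusted p = 0.512), and Birc3, the ubiquitin ligase cIAP2, by −0.20 (limma, adjusted p = 0.498). In these 4 genes all d7 arrays lay under all d3 arrays. Of the 10 inhibitor genes listed, Nfkbia among them, the d7 mean was higher in 4 and lower in 6. Tnfaip3 differed by 0.03 and Nfkbie by −0.06, with the groups overlapping, while 3 of the 10 had all d7 arrays below all d3 arrays. Of the 4 NF-kB subunit genes measured, Rel, Rela and Relb had d7 arrays all below d3 arrays, and Nfkb2 differed by −0.09. For Rela the groups were apart only narrowly, with the highest d7 array at 9.606 and the lowest d3 array at 9.608. Nfkb1 had no probe set of its own. Over the 68 genes, all d7 arrays lay below all d3 arrays for 9 (13.2%, against 3.38% of all probe sets) and above them for 4 (5.88%, against 2.62%). These pairs of shares, and those by unadjusted p above, are not like for like. Of the 68 genes 56 were above background, against 30.6% of all probe sets. Neither kind of share was counted over probe sets above background alone. When limma was run on those 20204 probe sets alone, 374 passed after adjustment, and 0 of the 56 pathway genes did.

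Zfp36l1, which encodes a protein that binds AU-rich elements and destabilizes mRNA, lay at 15.12 to 15.47 on d7 and at 14.72 to 14.84 on d3, a difference of 0.47 (limma, adjusted p = 0.264). Tnfaip2, first described as a TNF-induced gene, lay at 9.03 to 9.61 on d7 and at 8.00 to 8.63 on d3, a difference of 0.82 (limma, adjusted p = 0.488). For both, all d7 arrays were above all d3 arrays. Where only probe sets with 7 different values were tested, Rel, Nfkbia and Zfp36l1 passed, out of 12 pathway genes present, with adjusted p of 0.0271, 0.0359 and 0.0438 (limma), where 6.79% of those probe sets passed. The probe set of Cflar, among the 9 lower, has chromosome 3 in its identifier while RefSeq places the gene on chromosome 1.

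**Figure D4:**
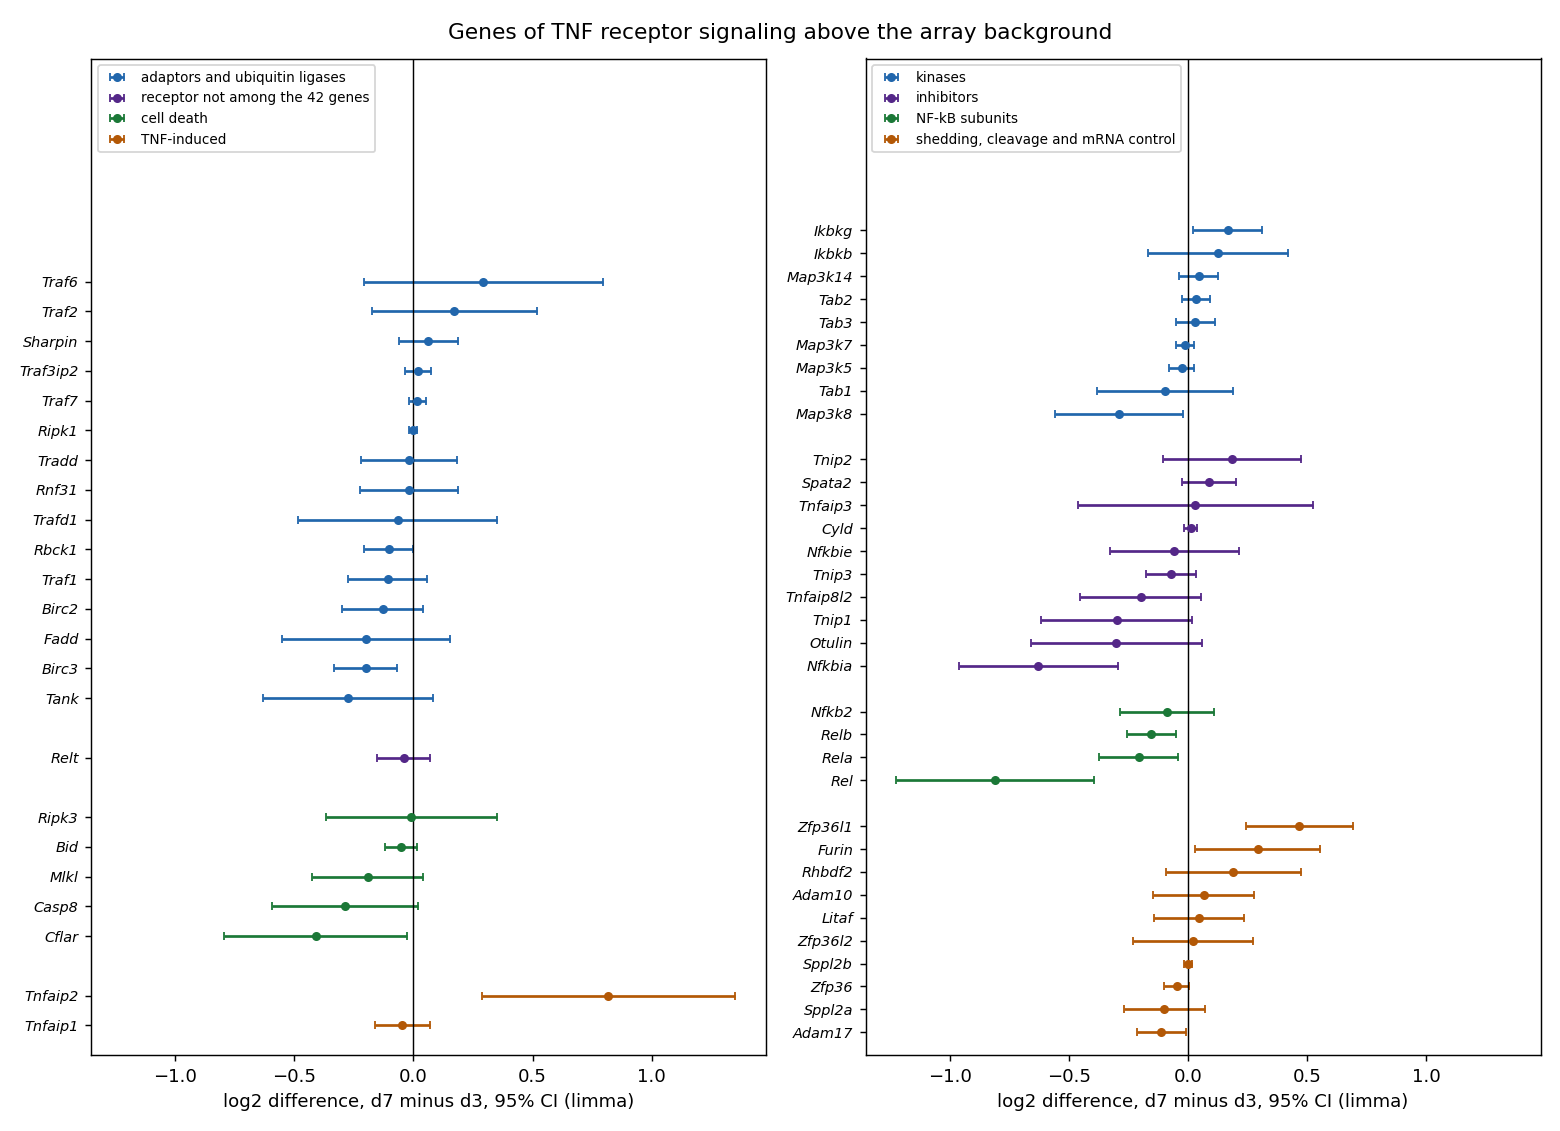
Log2 difference, d7 minus d3, with 95% confidence intervals (limma) for the 56 genes above background among the further genes listed. Genes are grouped by role or name and coloured by group. Rel at −0.81 and Tnfaip2 at 0.82 lie farthest from 0, and none of the genes passed the adjusted threshold.

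Marker genes of other cells were read on the same arrays. All 7 macrophage markers were above background, Adgre1 (F4/80) at 16.82 to 16.87 on d7 and 16.82 to 16.85 on d3. None of the 7 passed the adjusted threshold. The groups were apart for Fcgr1, at −0.37 (limma, adjusted p = 0.0734), Lyz2, at −0.08 (0.616), and Cd68, at 0.33 (0.647). For Lyz2 the gap was narrow, with the highest d7 array at 19.41 and the lowest d3 array at 19.43. Thus d7 lay apart above in 1 of 7 and below in 2 of 7, beside 2.62% and 3.38% of all probe sets. Neutrophil markers were above background in 6 of 12, and the log2 of their summed levels ran from 12.9 to 13.8 on d7 and from 13.7 to 14.0 on d3. One of them, Retnlg, fell by 4.85 on the log2 scale on d7 (limma, adjusted p = 0.0432). It passed limma without d3 replicate 1 (adjusted p = 0.0476) but not without any of the other 6 arrays (adjusted p 0.0609 to 0.191). Nor did it pass with robust eBayes (0.0599) or the methods' t-test after adjustment (0.131). Other neutrophil markers differed by 0.13 (S100a8), 0.14 (S100a9), 0.14 (Cxcr2), −0.35 (Csf3r) and −1.10 (Mmp8), and over the 12 the d7 mean was higher in 6 and lower in 5. Ly6g, Camp, Ngp, Ltf, Elane and Mpo were at background. On d7 replicate 6, S100a8 read 12.06, against 9.76 to 10.62 on the other d7 arrays and 10.22 to 10.76 on d3. S100a9 (10.95) and Cxcr2 (8.31) were likewise highest on that array. Of the family genes above background, Tnf, Tnfrsf26, Tnfrsf14, Fas, Tnfrsf4 and Tnfrsf23 had their single highest d7 value there. Tnfsf15 and Tnfrsf11a had their lowest. T cell markers were above background in 1 of 10 (Lat), with summed levels of 7.69 to 7.75 on d7 and 7.65 to 7.71 on d3. Above background were also 1 of 7 NK and innate lymphoid markers (Il7r, with a log2 difference of 0.85, limma, adjusted p = 0.271), 2 of 7 B cell markers (Cd79b and Cd22), 1 of 7 dendritic cell markers (Ccr7), 2 of 6 endothelial markers (Pecam1 and Kdr, the second with a difference of −1.09, limma, adjusted p = 0.0567), 0 of 6 mast cell, 0 of 7 fibroblast and 0 of 6 keratinocyte markers. The log2 of the summed endothelial levels ran from 8.12 to 8.21 on d7 and from 8.42 to 8.53 on d3. That of the NK and innate lymphoid list ran from 11.04 to 11.61 on d7 and from 10.38 to 10.75 on d3. Il7r alone read 10.96 to 11.56 on d7 and 10.25 to 10.65 on d3. Sums of levels are weighted to their highest probe sets and do not measure the amount of a cell type. The part of neutrophil or other RNA in the differences above was not tested.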

How the data were processed

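RNA of sorted CD11b+ F4/80+ wound macrophages was amplified, labelled and hybridized by the authors to Affymetrix mouse transcriptome arrays, 4 for d7 and 3 for d3. The deposited table gives 1 log2 level per probe set and array; the submitters' processing notes name Affymetrix Expression Console, and the normalization and genome build are not given in the sources used here. Of 72688 rows, 6732 array controls were left out. Of the 65956 probe sets tested, 30638 had 1 gene symbol in the platform annotation, 2176 had several and 33142 had none listed. Array medians were 4.14 to 4.17 on d7 and 4.14 to 4.22 on d3. The number of arrays limits the precision.

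The 4 d7 arrays were compared with the 3 d3 arrays in R 4.3.3 by limma 3.58.1, with moderated two-sided tests and no covariate, adjusted over all probe sets with the Benjamini-Hochberg method at 0.05. The fit was tested on simulated data. No count model was used, and no paired design exists. Genes above background were named with levels, those with an unadjusted p under 0.05 and the 5 with the highest means with every array, those at background by their range, and of the pathway genes the 6 with the smallest p. The members and lists were chosen with earlier results of these data known. Alternatives were another scaling, variance model, filter, probe set rule or test, and leaving out each array. Promoter sequence and gene neighbours come from RefSeq (GRCm38.p6). Tables and plots were made in Python 3.11.15 (pandas 2.3.3, matplotlib 3.10.9).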

Additional observations from a re-analysis of the deposited data

Results flagged for a closer look

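Of 25 genes taken for this check, Tnfsf13b and Tnfsf13os held 1 value on all 4 d7 arrays and could not be checked. In 6 of the others, 1 of the 4 d7 arrays lay far from the rest by Dixon's criterion. That criterion flags about 1 in 20 groups of distinct values by chance. Cd40 read 7.60 on d7 replicate 5, with the nearest d7 array at 7.91. Tnfaip2 read 9.61 on d7 replicate 6, with the nearest at 9.09, and Tnfrsf4 read 5.59 on the same array, with the nearest at 5.41. In the remaining 3 genes the other d7 arrays all held 1 repeated value, so that a departure of any size meets the criterion and the chance rate does not apply: Fas read 8.67 on d7 replicate 6 beside 8.48, Ltbr 8.06 on d7 replicate 5 beside 8.10, and Tnfrsf13b 6.61 on d7 replicate 8 beside 6.67. Replicate 6 of d7, which accounts for 3 of the 6, is also the array with the highest d7 level of S100a8, at 12.06.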

How the results depend on the processing

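No family gene and no pathway gene passed under quantile normalization, median centring, another variance model, a filter on level, averaging a gene's probe sets or the methods' t-test after adjustment, and leaving out each array in turn gave 0 to 0 calls in both lists. Without adjustment the methods' t-test called 11 of the 42 family genes (3 higher, 8 lower) and 10 of the 68 pathway genes (4 higher, 6 lower). It called 5.54% of all probe sets. Restricting the test to probe sets with 7 different values, added after seeing the data, tested fewer features, called 1 family gene (Tnf) and 3 pathway genes, and put the family median at −0.59 over 7 genes. Over all 42 genes the median of −0.0080 lay between −0.014 and −0.0016 when 1 array was left out, and was positive after quantile normalization (0.0028) and centring (0.013). Ltbr changed sign, to 0.0036 after quantile normalization and 0.011 after centring, as did 5 genes at background under the first and 7 under the second, all with differences of at most 0.020 in size. The adjusted p of Tnf ranged from 0.0230 to 0.609 over its alternatives, and its difference from −0.86 to −0.67. Over all probe sets 77 passed, against 1 to 212 when 1 array was left out (1 without d7 replicate 8, 212 without d3 replicate 1), 169 after quantile normalization, 223 after centring, 208 at or above the median level, 374 above background, 824 with 7 different values, 13 with the adjusted and 3652 with the unadjusted t-test. No paired analysis was possible because the 2 days share no replicate number.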

Other observations

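Fas and Tnfrsf19 each had another probe set, at background on all 7 arrays. That of Fas lay at 4.77 to 4.90 on d7 and 4.71 to 4.77 on d3, a difference of 0.08 in the same direction as the one used, and carries chromosome 17 in its identifier while RefSeq places Fas on chromosome 19. That of Tnfrsf19 differed by −0.04.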
